A study of Mus musculus with 144 samples.

Results

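RNA from polysomes was compared with RNA from nuclei in the livers of male wild-type C57BL/6J mice. The comparison rested on 66 of the 144 libraries of the series: 30 polysomal libraries (replicates 2 to 6) and 36 nuclear libraries (replicates 1 to 6). Both fractions were taken at 6 times of day, written ZT, hours after lights on (ZT2, ZT6, ZT10, ZT14, ZT18 and ZT22), from mice under a cycle of 12 h light, then 12 h dark, that could feed at any time. Each time had 5 polysomal and 6 nuclear libraries. The 6 polysomal libraries of replicate 1 were left out because they differ from the other polysomal libraries, and they are given beside the results as a separate set. Nuclei came from homogenised frozen tissue washed in hypotonic buffer and spun through a sucrose cushion. Polysomes came from tissue crushed under liquid nitrogen, taken up in a buffer with cycloheximide, which holds ribosomes on mRNA, and separated on a sucrose gradient. All libraries were made with the Lexogen QuantSeq 3′ kit, which primes on runs of A with oligo(dT) and reads next to the 3′ end of an RNA. The labels give no age, no genetic change or agent in these mice beyond wild type, and no statement that a replicate number marks a separate animal, so the p-values measure the spread between these libraries, which may in part be technical.

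A messenger RNA is transcribed, spliced, cleaved and polyadenylated in the nucleus, then exported and loaded with ribosomes, and an mRNA carrying several ribosomes at once sediments as a polysome. The nuclear fraction should therefore hold newly made RNA, RNA that stays in the nucleus, and small RNAs of nuclear bodies, while the polysomal fraction is drawn from RNA under translation. A preparation of nuclei can also carry RNA from outside the nucleus, and the nuclear libraries here held mitochondrial transcripts, given below. Many genes have several poly(A) sites, some far upstream in the gene. A site's share of the reads gives its weight among the gene's listed sites in a fraction. Since priming is on runs of A, a run of A inside an RNA could also yield such reads, which was not tested. Values below are in CPM, a gene's count scaled to the total of its library. They are shares within a fraction and say nothing of the amount of RNA per cell.

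Gene counts totalled 1662449 to 6620128 per nuclear library (median 3993642) and 2578048 to 13068044 per polysomal library of replicates 2 to 6 (median 5111582). Nuclear libraries held counts for 14693 to 17922 genes and polysomal libraries for 12277 to 15595. In 1 library of the comparison the labelled sex did not match the counts: the nuclear library labelled replicate 5 at ZT22 had 4363 CPM of Xist, the RNA of the inactive X chromosome, and no count of the Y-linked gene Ddx3y. Replicate 1 of the polysomal set also held such a library, at ZT22, with 165 CPM of Xist. Without the nuclear library 9242 genes were called in place of 9286, 6230 poly(A) sites in place of 6266 and 24 rhythms in place of 23. Hepatocyte markers filled both fractions, with a summed level of 33580 to 79200 CPM in the nuclear and 24840 to 69760 CPM in the polysomal libraries. Of 12 of them, 2 were called higher in polysomal RNA and 4 lower. Of all genes tested, 39.1% were called higher and 43.2% lower, and the marker calls here are to be read against those shares. Red cell markers were higher in polysomal RNA for 4 of 5 genes, with a summed level of 437 to 5686 CPM in nuclei and 2157 to 20820 CPM in polysomes. The remaining one, Alas2, differed by -0.03 on the log2 scale. Within replicates 2 and 3, 3 of these markers were higher and 1 lower (median log2 difference 1.11), and within replicates 4 to 6 all 5 were higher (3.48). With the counts of poly(A) sites summed in each gene, 3 were higher and 1 lower. For such markers, a differing share of a cell type in the 2 preparations and a differing share of its RNA in each fraction cannot be told apart. Of 10 stellate cell markers 8 were lower and 1 higher, with a median log2 difference of -1.02 and a summed level of 203 to 544 CPM in nuclei and 194 to 543 CPM in polysomes. Exocrine pancreas genes had a summed median of 15.98 CPM in nuclei and 24.5 CPM in polysomes, but reached 3956 CPM in a single polysomal library. Airway genes summed to at most 6.34 CPM in the libraries compared, against 61.8 to 1002 CPM in polysomal replicate 1.

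A small group of genes separated the polysomal sets themselves and is set out first, because it supplied the highest fold changes. In 16 genes the polysomal median of replicates 2 to 6 was at least 10 CPM and at least 16 times that of polysomal replicate 1. In 6 genes the reverse held. This rule was set after the values were seen. The 10 highest differences by the naming rule below (Srsf1, Mrps23, Desi2, Ppp1ca, Hhex, Tmem134, Lsm4, Tmem150a, Jund and Coro1b, at log2 8.29 to 6.54) were all of this kind. Ppp1ca, a catalytic subunit of protein phosphatase 1, ranged from 0 to 2.49 CPM in the nuclear libraries (median 0.954), from 108 to 335 CPM in polysomal replicates 2 to 6 (median 196) and from 1.575 to 3.898 CPM in polysomal replicate 1. Srsf1, a splicing factor, ranged from 0 to 1.05 CPM, from 23.3 to 64.4 CPM and from 0 to 1.06 CPM in the same order. For Jund, a subunit of the AP-1 transcription factor, the gene table gave a median of 91.6 CPM in polysomal replicates 2 to 6, while the sites inside the gene in the authors' site table summed to 1.02 CPM in the same libraries. The pseudogene Gstp-ps went the other way, with medians of 1804 CPM in nuclei, 0.841 CPM in polysomal replicates 2 to 6 and 2937 CPM in polysomal replicate 1. Mat2a, which makes the methyl donor S-adenosylmethionine, had medians of 82.2, 0.960 and 105 CPM in that order, and Vamp8, a protein of vesicle fusion, 79.97, 2.74 and 129 CPM. For these genes a difference between fractions and a difference between sets of libraries cannot be told apart. They stay in the counts below: Srsf1 is among the splicing regulators, Mrps23 among the mitochondrial ribosomal proteins, Jund among the immediate early genes and Slc30a1 among the SLC transporters, each called higher. Without the 22 genes, 4395 genes were called higher and 4869 lower of 11254, and those 4 lists each had 1 higher call fewer (3, 53, 8 and 71), while the other lists held none of them. The 16 genes together held a median of 0.127% of the counts of a polysomal library.

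Most genes differed between the fractions. Of 11276 genes that averaged 10 counts or more per library, 4411 were higher in polysomal RNA (39.1%) and 4875 lower (43.2%) by edgeR's quasi-likelihood test with time as a factor (Benjamini-Hochberg adjusted p under 0.05). So 82.4% of all genes tested were called, and a list is read below against those shares. At least 2-fold differences were called higher for 2093 genes (18.6%) and lower for 2892 (25.6%). The CPM ranges of the fractions did not overlap at all for 1198 genes (10.6%). The median log2 difference of all genes was -0.06. Of the genes called, 8417 (90.6%) had the same direction at all 6 times. With RLE size factors 4045 genes were higher and 5217 lower, since that scaling shifted the median of all genes by -0.10, to -0.16. Log2 differences here are to be read relative to these medians.

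Polysomal and nuclear replicate 1 share no library with replicates 2 to 6, and served as a second measurement of the same contrast. Of 2183 genes called at least 2-fold higher in replicates 2 to 6, 2120 (97.1%) were higher in replicate 1 as well and 1758 were called there, against 11 called in the opposite direction. Of 2798 genes called at least 2-fold lower, 2674 (95.6%) were also lower, 2380 were called, and 26 were called in the opposite direction.

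**Figure D1:**
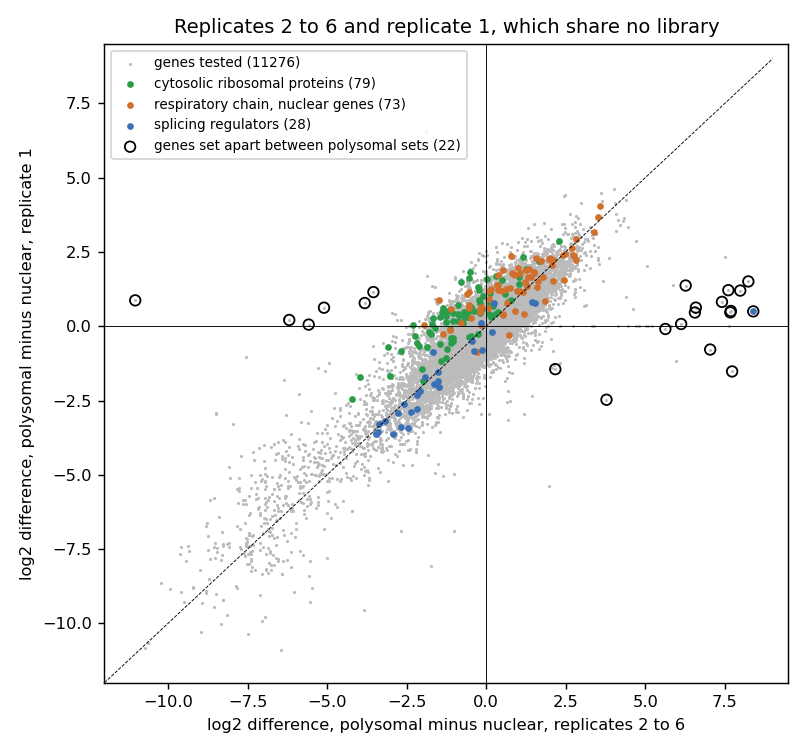
Each point is a gene tested. The horizontal axis is the log2 difference between polysomal and nuclear RNA in replicates 2 to 6 and the vertical axis the same difference in replicate 1, with equality dashed. The cloud follows the dashed line, the 22 circled genes lie far from it, and most cytosolic ribosomal protein genes lie above it.

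RNAs known to stay in the nucleus were low in polysomal RNA. Malat1, a long noncoding RNA of nuclear speckles, ranged from 407 to 2964 CPM in the nuclear libraries (median 1482) and from 17.7 to 102 CPM in the polysomal libraries (median 46.8). Its log2 difference was -5.04 ± 0.20 (SE; edgeR adjusted p = 4.02e-33). Neat1, the RNA scaffold of paraspeckles, ranged from 282 to 5126 CPM in nuclei (median 1411) and from 2.59 to 43.5 CPM in polysomes (median 8.47), a log2 difference of -7.47 ± 0.23. In neither gene did any polysomal library reach the lowest nuclear one. Alb, an abundant plasma protein mRNA of the liver, had medians of 21520 CPM in nuclei and 20540 CPM in polysomes. Its ranges overlapped, with a log2 difference of -0.13 ± 0.11 (edgeR adjusted p = 0.295).

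**Figure D2:**
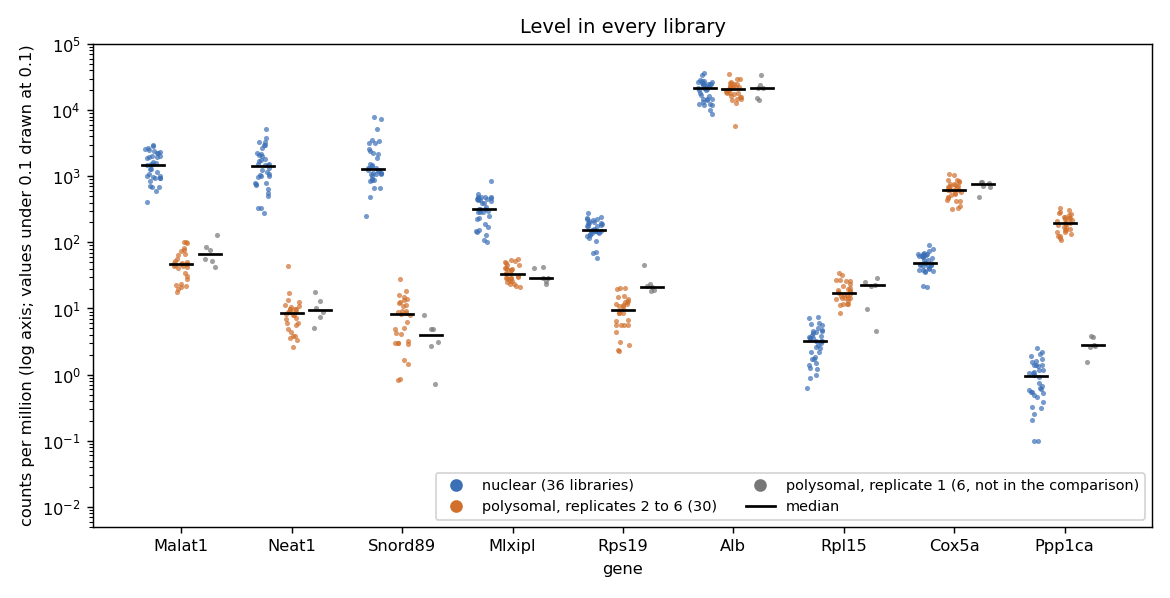
Each point is a library, on a log axis of CPM, with the median of its set as a bar. Malat1, Neat1, Snord89, Mlxipl and Rps19 were lower in every polysomal library of replicates 2 to 6 than in every nuclear library, Rpl15 and Cox5a were higher in every one, and Ppp1ca was high in polysomal replicates 2 to 6 alone.

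Of 10 tested long noncoding RNAs listed as retained in the nucleus, 9 were lower in polysomal RNA and 1 higher, with a median log2 difference of -3.99. Kcnq1ot1, the antisense RNA that silences an imprinted domain, had a median of 104 CPM in nuclei and 1.36 CPM in polysomes (log2 -5.89 ± 0.26). Firre, which anchors chromatin of the X chromosome, was lower by a log2 of -3.73 ± 0.24. Mir99ahg (-5.03), Mir17hg (-4.11, and -4.98 without replicate 2), Snhg11 (-3.87), Jpx (-2.74) and Dleu2 (-2.27) were lower as well. Tug1 was the exception at 0.98 ± 0.14, from a nuclear median of 4.22 to a polysomal median of 9.68 CPM with overlapping ranges, and within replicate 1 it was not called (0.73, edgeR adjusted p = 0.097).

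By gene type, the lowest median log2 differences were those of small noncoding RNAs. The lowest single gene tested was the pseudogene Gstp-ps (-10.97), set out above. RefSeq types were found for 10488 of the genes tested. All 39 small nucleolar RNA genes, which guide chemical marking of ribosomal RNA, were lower in polysomal RNA, with a median log2 difference of -7.23, and so were all 8 spliceosomal and related small nuclear RNAs (-6.94). Their summed levels had medians of 4011 and 300 CPM in nuclei and of 44.1 and 2.57 CPM in polysomes. Both types thus passed the filter on low counts mainly through nuclear reads. That all tested members were lower was therefore largely set by the filter. Among all 195 tested genes of RefSeq type lncRNA, those named above included, 129 were lower (66.2%) and 35 higher (17.9%), with a median of -1.16. Protein-coding genes split evenly, with 41.3% higher and 40.3% lower of 9849 and a median of 0.02. Within replicate 1 the median log2 differences of these types, in the order given, were -7.53, -4.45, -1.31 and 0.07.

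By the naming rule the lowest named genes were Scarna17 (log2 -9.38 ± 0.30), Mir682 (-9.21), Snora30 (-8.67), Rnu3b3 (-8.31), Snord104 (-8.28), Snord89 (-7.997), Acrbp (-7.68), Snora81 (-7.59), Neat1 and Rnu3b4 (-7.22). Scarna17 guides marks on spliceosomal RNA in Cajal bodies, and Rnu3b3 and Rnu3b4 are copies of the U3 RNA of ribosome assembly, whose reads a count table may split between near-identical copies. Snord89 ranged from 253 to 7752 CPM in nuclei (median 1283) and from 0.842 to 28.3 CPM in polysomes (median 8.15). Such RNAs have no poly(A) tail in their mature form, and what was primed in them was not tested. At these levels a polysomal library holds few or no reads of most of these genes, so the exact fold depends on the model's prior count. It also moved with single replicates: Rnu3b3 was at -9.67 without replicate 3 and -7.62 without replicate 5, and without replicate 4 Mir682 was at -10.06 and Snord104 at -9.001.

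Genes that host small nucleolar RNAs in their introns followed the same direction. Of 15 tested, 14 were lower in polysomal RNA and 1 higher, with a median log2 difference of -2.36 and of -3.21 within replicate 1. Snhg20 ranged from 18.9 to 85.0 CPM in nuclei and from 0.18 to 4.53 CPM in polysomes (log2 -4.95 ± 0.19). Gas5, the most abundant, was lower by a log2 of -1.01 ± 0.08 and Snhg3 was higher by 0.99 ± 0.16, though not called within replicate 1 (0.52). A host and its guest can share reads in a gene table. Eif4a2, an initiation factor that hosts small nucleolar RNAs, had a log2 difference of -2.84 ± 0.15 in the gene table, from a nuclear median of 747 to a polysomal median of 114 CPM. When the counts of the poly(A) sites inside the gene were summed instead, the difference was 1.11, in the opposite direction. The listed hosts did not turn in this way: of 11 called in both ways of counting, all 11 had the same direction. Of 5680 genes called in both ways of counting, 5533 had the same direction and 147 (2.59%) the opposite.

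Regulators of splicing were low in polysomal RNA as a group. SR proteins bind splicing enhancers and CLK kinases phosphorylate SR proteins. Of 28 SR proteins, CLK kinases and other listed factors tested, 22 were lower and 4 higher, with a median log2 difference of -1.89. Of these 28, 19 were lower at least 2-fold. Within replicate 1, 22 were lower and 3 higher, with a median close to that of the main comparison. Srsf5 ranged from 96.2 to 632 CPM in nuclei (median 298) and from 13.1 to 61.7 CPM in polysomes (median 30.1), which do not overlap, for a log2 difference of -3.50 ± 0.12 (edgeR adjusted p = 1.03e-37). Srrm2, a large scaffold of nuclear speckles, ranged from 213 to 1175 CPM and from 15.2 to 180 CPM, a log2 difference of -3.08 ± 0.16. Among the members called higher was Srsf1, described above. The other 3 called higher, 2 of them at least 2-fold, were not among the genes that separated the polysomal sets.

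Liver mRNAs reported to be held in the nucleus were few and moved together. All 4 tested were lower in polysomal RNA, with a median log2 difference of -2.38. Mlxipl, which encodes the carbohydrate-sensing transcription factor ChREBP, ranged from 100 to 837 CPM in nuclei (median 324) and from 21.2 to 55.5 CPM in polysomes (median 33.8), with no overlap and a log2 difference of -3.35 ± 0.13 (edgeR adjusted p = 1.44e-34). Nlrp6, an innate immune sensor, differed by -2.29 ± 0.12 and Chka, a choline kinase, by -2.48 ± 0.16. Gcgr, the glucagon receptor, differed by -0.49 ± 0.11, and within replicates 4 to 6 it was not called (-0.13, edgeR adjusted p = 0.348). Zinc finger genes named Zfp leaned the same way, with 93 of 180 lower, 48 higher and a median of -0.54. Their extremes were Zfp276 at -3.81 ± 0.20 and Zfp931 at 3.20 ± 0.31, and the most abundant, Zfp706, was higher at 2.19 ± 0.09.

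Genes of the respiratory chain encoded in the nucleus were high in polysomal RNA. Of 73 tested, 52 were higher and 15 lower, with a median log2 difference of 0.91, and 35 were higher at least 2-fold. Within replicate 1, 59 were higher and 1 lower, with a median of 1.37. Ndufa4, a small subunit of the cytochrome oxidase complex, ranged from 8.82 to 25.7 CPM in nuclei (median 18.1) and from 116 to 365 CPM in polysomes (median 221.0), a log2 difference of 3.54 ± 0.10 (edgeR adjusted p = 1.17e-41). Cox5a, another subunit of that complex, ranged from 21.3 to 92.6 CPM and from 317 to 1079 CPM, with a difference of 3.48 ± 0.12. Neither pair of ranges overlapped, and polysomal replicate 1 lay within or near the polysomal range, at a median of 359 CPM for Ndufa4 and 760.0 CPM for Cox5a. Atp5g3, part of the rotor ring of ATP synthase and the most abundant member, was higher by 2.66 ± 0.14. Ndufv3, of complex I, was the lowest at -1.91 ± 0.15, and within replicate 1 it stood at 0.05.

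Mitochondrial ribosomal proteins and proteasome subunits showed the same lean. Of 78 mitochondrial ribosomal protein genes, 54 were higher and 11 lower (median 0.68), and within replicate 1, 58 and 4. Mrpl34 had a difference of 2.81 ± 0.10 and Mrps18a of -2.35 ± 0.10, while the highest member, Mrps23, is one of the genes that separated the polysomal sets. Of 37 proteasome subunits, 24 were higher and 9 lower (median 0.68), and within replicate 1, 27 and none. Psmd14, the deubiquitinating subunit of the proteasome lid, ranged from 4.09 to 15.6 CPM in nuclei and from 26.4 to 77.2 CPM in polysomes (log2 2.49 ± 0.11). Psmd11, the most abundant, did not pass the test (0.03 ± 0.07). Psmb10, of the immunoproteasome, was called lower at -1.07 ± 0.12, but was called higher within replicate 1 at 0.63. Selenoprotein genes, whose translation reads a stop codon as selenocysteine, were higher for 13 of 19 and lower for 4 (median 0.74). Gpx1, which reduces peroxides, was higher by 0.96 ± 0.14, and Selenoo was lower by -2.38 ± 0.11, a call that was lost when site counts were summed (-0.15). The highest member, Txnrd2, had a nuclear mean of 1.08 CPM, a polysomal mean of 27.9 CPM and a mean of 1.73 CPM in polysomal replicate 1.

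Transcripts of the mitochondrial genome did not share this lean. Of 9 mitochondrially encoded transcripts tested, 6 were lower in polysomal RNA and 1 higher, with a median of -0.63. These RNAs are translated inside mitochondria and are not substrates of cytosolic ribosomes. The 13 listed genes summed to 30240 to 106800 CPM in nuclear libraries (median 65570) and 16480 to 47120 CPM in polysomal ones (median 26770). The nuclear libraries thus also held RNA from outside the nucleus, and how far this held for other genes was not tested. mt-Nd2 ranged from 4184 to 28320 CPM in nuclei and from 641 to 2531 CPM in polysomes (log2 -3.75 ± 0.19), and mt-Nd1 (-1.60), mt-Nd4 (-1.54), mt-Nd5 (-1.47), mt-Co1 (-0.63) and mt-Nd4l (-0.61) were lower too. mt-Cytb (-0.14) and mt-Nd3 (-0.02) did not pass the test, and mt-Nd6, encoded on the other strand, was higher at 0.86 ± 0.19 but stood at -0.59 within replicate 1. Leaving mitochondrially encoded genes out of both the test and the library sizes changed the number of genes called from 9286 to 9273, which includes the loss of their own calls.

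**Figure D3:**
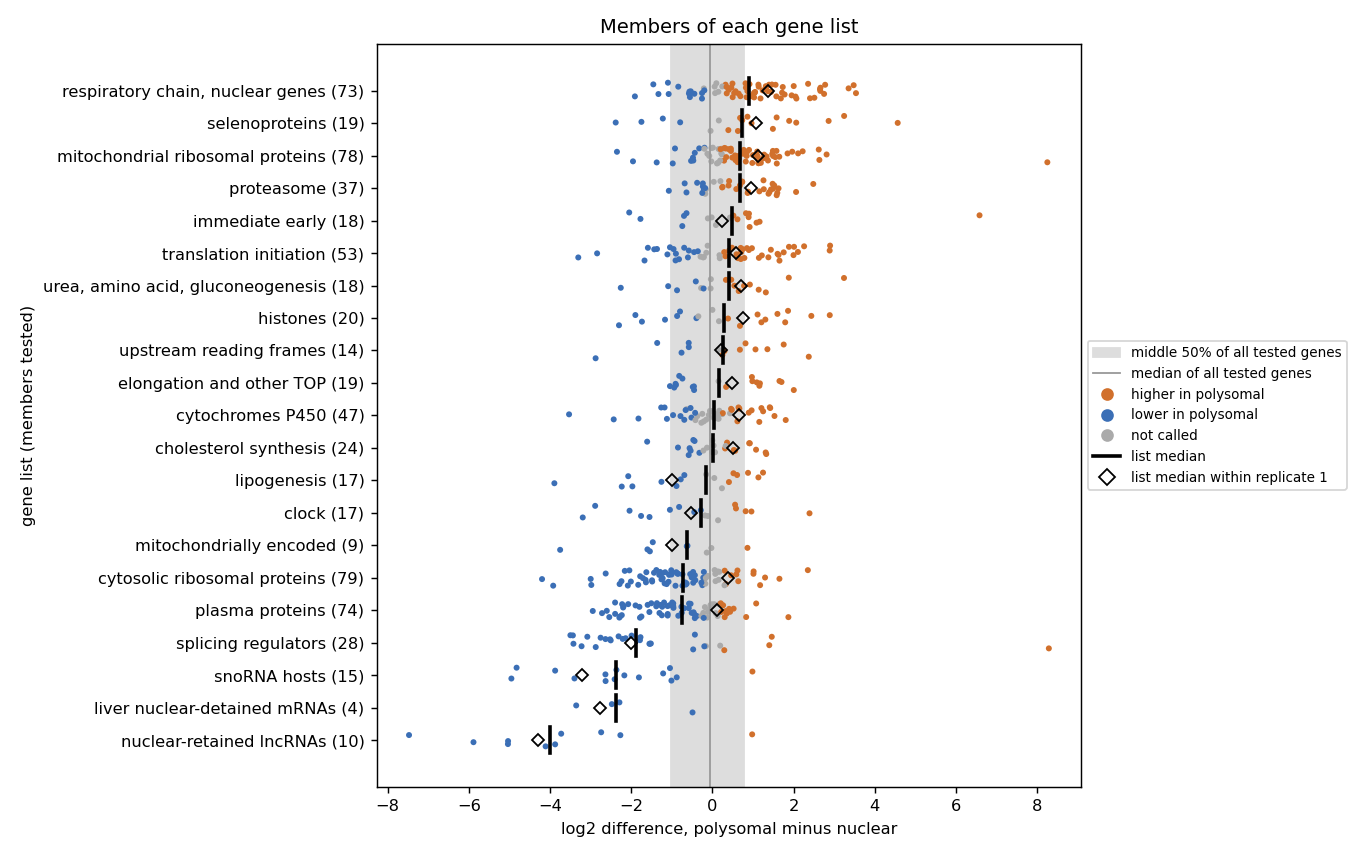
Each point is a gene of the list named on the vertical axis, with the number of members tested in brackets. The horizontal axis is the log2 difference, polysomal minus nuclear, colours show the call, grey shading is the middle of all tested genes, the black bar is the list's median and the diamond its median within replicate 1. Splicing regulators, snoRNA hosts and nuclear-retained RNAs lie to the left in both, the respiratory chain to the right in both, and the diamonds of plasma proteins (0.11) and cytosolic ribosomal proteins (0.38) lie on the other side of 0 from their bars.

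Among single genes that were high in every set, 10 were chosen after the values were seen, as the highest by the naming rule that also differed at least 2-fold and were called within replicate 1, apart from genes that the rule names already. They were Taf9 (log2 4.19), Usmg5 (4.12), Carnmt1 (4.01), Rraga (3.74), Hbb-bt (3.72), Cox20 (3.53), Cox5a (3.48), Uqcrfs1 (3.36), Vamp7 (3.30) and Timm8a1 (3.26). Usmg5 is a small subunit of ATP synthase, Cox20 assembles cytochrome oxidase, Uqcrfs1 is the iron-sulfur protein of complex III and Timm8a1 carries proteins into mitochondria. Rraga is a GTPase that relays amino acid supply to mTORC1. Hbb-bt, a beta globin of red cells, ranged from 7.52 to 88.7 CPM in nuclei and from 161 to 1186 CPM in polysomes, beside the red cell markers above, and the part of red cells in its difference was not tested.

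Plasma protein genes, the secretory output of hepatocytes, were lower in polysomal RNA in the main comparison, with more lower than higher calls, while calls within replicate 1 were divided. Of 74 tested, 48 were lower and 12 higher, with a median log2 difference of -0.76, and 31 were lower at least 2-fold. Within replicate 1, 17 were lower and 19 higher, with a median of 0.11, and the difference between the sets was not tested. Apoe, a lipoprotein component and the most abundant member, ranged from 28800 to 94110 CPM in nuclei (median 57400), from 5245 to 23540 CPM in polysomes (median 10680) and from 13640 to 28610 CPM in polysomal replicate 1. Its log2 difference was -2.54 ± 0.14 in the main comparison and -1.39 within replicate 1. Proc, the anticoagulant protein C, fell from a nuclear median of 327 to a polysomal median of 45.0 CPM (log2 -2.95 ± 0.11), and its difference within replicate 1 was -0.93. Rbp4, the retinol carrier of plasma, was higher at 1.87 ± 0.11, from a median of 1367 to one of 5657 CPM, and at 2.54 within replicate 1.

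Cytosolic ribosomal protein genes were also mostly lower in the main comparison. Their mRNAs begin with a run of pyrimidines after the cap, the TOP motif, through which mTORC1 controls their translation. Of 79 tested, 56 were lower in polysomal RNA and 12 higher, with a median log2 difference of -0.74. Within replicates 2 and 3 alone, 53 were lower and 8 higher, and within replicates 4 to 6 alone, 47 and 15. Within replicate 1, 16 were lower and 31 higher, with a median of 0.38. The list's median thus had opposite signs in the 2 sets, a difference that was not itself tested. Rps19 ranged from 58.4 to 279 CPM in nuclei (median 154), from 2.25 to 20.7 CPM in polysomes (median 9.52) and from 18.6 to 45.5 CPM in polysomal replicate 1. The difference was -4.20 ± 0.16 (edgeR adjusted p = 1.72e-34), and -2.44 within replicate 1. Rpl15 ranged from 0.629 to 7.56 CPM in nuclei (median 3.26) and from 8.53 to 34.04 CPM in polysomes (median 16.99), at 2.35 ± 0.15 and at 2.86 within replicate 1. Rplp1, the most abundant, differed by -1.01 ± 0.11, and by 0.18 within replicate 1.

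Start regions of 58 of these genes were found in the RefSeq promoter table (mouse), and a run of C and T beginning with a C within 5 bases of the listed start was at least 8 bases long in 19 of them (32.8%), against 4.78% of all tested genes with a start region and 4.38% of all 27025 starts in the table. Only the strand of the gene was searched. To show such runs beside the range of log2 differences, 3 genes from the low end and 3 from the high end of those 19 are printed from 5 bases before the listed start, 30 bases each, 5′ to 3′, with the run in capitals.
Rpl28: tgtCTCTCTTTCCgtctccggccgccatag
Rps27: tcgCTCCTTTCCggcggtgacgacctccct
Rps18: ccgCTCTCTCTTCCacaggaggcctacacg
Rplp2: tCTTCCTTTCgccgccggacgccgccgagg
Rps15a: gccatCTTCCCTCgccggtgagtgagtgtt
Rpl15: gCCTTCTTCCTTTCCTCTggcggcagccat

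These 6 genes had log2 differences of -3.92, -2.24, -2.16, -0.17, 0.59 and 2.35 in that order, with runs of 10, 9, 11, 9, 8 and 17 bases. The 19 genes with such a run spanned -3.92 to 2.35 (median -1.13). The 8 with a run of 5 to 7 bases spanned -1.01 to 1.65 (median 0.19). The 31 with a run of at most 4 bases spanned -4.20 to 1.30 (median -0.47), so the medians did not fall steadily with length. Among all tested genes the medians were -0.04 with a run of at least 8 bases, 0.04 with 5 to 7 and 0.01 with at most 4. A listed start need not be the start used in liver, and a run of letters is a description, not a measured TOP motif.

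Translation factors were divided. Of 19 elongation factors and other TOP mRNAs, 9 were higher and 9 lower (median 0.15). Eef1a1, which brings aminoacyl-tRNA to the ribosome, ranged from 104 to 272 CPM in nuclei and from 502 to 1329 CPM in polysomes (2.01 ± 0.08), and was at 1.99 within replicate 1. Eef2, the translocase, was at -0.82 ± 0.10 and at 0.42 within replicate 1, and Eif4b was at -1.04 ± 0.09. Of 53 initiation factor genes, 29 were higher and 17 lower (median 0.41). Eif4g2, which supports initiation that does not depend on the cap complex, ranged from 53.0 to 122 CPM and from 479 to 961 CPM (2.90 ± 0.08). Eif4g3, a scaffold of the cap complex, was lowest at -3.30 ± 0.16. Among 14 mRNAs with known upstream reading frames, which can hold ribosomes before the coding region, 8 were higher and 5 lower (median 0.27). Ddit3, a stress transcription factor, was at -2.88 ± 0.18, Azin1, an antizyme inhibitor, at 2.38 ± 0.08 and Cebpa, a hepatocyte transcription factor, at 1.06 ± 0.08.

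Metabolic gene lists had members in both directions. Cytochromes P450 of families 1 to 4 had 15 higher and 13 lower of 47 (median 0.03), cholesterol synthesis 9 and 8 of 24 (0.01), lipogenesis 6 and 8 of 17 (-0.15), and SLC transporters 72 and 80 of 196 (-0.08). These splits moved with the set of libraries: within replicate 1, P450 genes had 23 higher and 4 lower, cholesterol synthesis 11 and 2, and lipogenesis 2 and 11. Cyp2c29, an abundant P450, was at 1.41 ± 0.14, Cyp2j9 at -3.53 ± 0.30 and Cyp2r1, a vitamin D hydroxylase, at 1.81 ± 0.20. Hsd17b7, of the sterol pathway, was at 1.33 ± 0.10. Pnpla3, of lipid droplets, was at -3.89 ± 0.59, and at -2.998 without replicate 3 and -4.48 without replicate 4. Acly, which makes cytosolic acetyl-CoA, was at 1.25 ± 0.13. Scd1, a fatty acid desaturase, did not pass the test (-0.15 ± 0.24), and was called in opposite directions within replicates 2 and 3 (-1.49) and within replicates 4 to 6 (1.34). Slco1b2, a bile acid carrier, was at 1.56 ± 0.10. Of 18 genes of the urea cycle, amino acid breakdown and gluconeogenesis, 10 were higher and 5 lower (median 0.40). Tdo2, which opens the ring of tryptophan, was at 1.88 ± 0.10. Asl, of the urea cycle, was at -2.26 ± 0.12, and at -0.35 within replicate 1, where it was not called. Histone genes had 10 higher and 7 lower of 20 (0.27), among them H2afz at 2.89 ± 0.11, H3f3b at 1.79 ± 0.07 and Hist1h2al at -2.30 ± 0.16. Of 18 immediate early genes, 9 were higher and 5 lower (0.48), with Klf9 at 0.90 ± 0.09 and Gadd45g at -2.05 ± 0.32.

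Across protein-coding genes the difference went with the span of the gene in RefSeq. All 9849 had a span. In the shortest quintile (374 to 8357 bp) 48.1% were higher in polysomal RNA and 31.3% lower, with a median log2 difference of 0.25. In the longest quintile (from 68461 bp) 53.4% were lower, with a median of -0.38. The 3 quintiles between had medians of 0.13, 0.06 and -0.02. Within replicate 1 the medians of the 5 quintiles were 0.50, 0.25, 0.04, -0.06 and -0.51. Level moved with the difference too: the quintile of lowest mean level had a median of -0.33 and that of highest level 0.32, and level and span were not separated. This is a description across genes, which are not independent replicates.

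The time course differed between fractions for few genes. A difference in the 24 h cosine was called for 23 genes (0.204% of those tested), while 864 genes had an unadjusted p under 0.05 and 564 would at that level if no gene differed. Of the 23, 15 had a polysomal median of 0 CPM and passed the filter on low counts through nuclear reads, so they show no measurable polysomal curve, and 8 remain with a polysomal median above 0. In simulated counts the same test found 34 of 100 genes with a 3-fold peak-to-trough ratio in polysomal RNA alone, and 2 of 100 with a 2-fold ratio. The simulation set the spread between libraries to a single value for all genes, not estimated from these data. At that setting most differences of this size would be missed. Of the 5 genes with the smallest p, Gramd1c had 60.9 counts on average, while AC153366.2, Gm42659, Gm43274 and Gm26601 had polysomal medians of 0 CPM, so no polysomal rhythm can be read for them. Gramd1c, which encodes a lipid transfer protein, had nuclear means between 12.0 ± 5.48 CPM (SD, ZT10, n = 6) and 21.2 ± 7.07 (ZT18) and polysomal means between 5.04 ± 2.84 (ZT18, n = 5) and 15.9 ± 3.63 (ZT6). Its fitted peak was at ZT19.1 in nuclei and ZT6.57 in polysomes (edgeR adjusted p = 0.00364). The call was lost without replicate 3 (adjusted p = 0.0516) and when time entered as a factor (0.0727), a fit in which no gene was called.

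Of 17 core clock genes tested, 2 were called for a difference of curve. One of them, Tef, a PAR-family transcription factor, peaked at ZT11.1 in nuclei and ZT13.7 in polysomes (edgeR adjusted p = 0.0176), with nuclear means of 216 ± 61.1 CPM at ZT6 and 199 ± 71.9 at ZT14 and polysomal means of 89.3 ± 30.95 and 202 ± 83.4. The fitted polysomal peak was later than the nuclear one for 12 of the 17 genes. Over all 17 genes the median shift was 0.448 h later. Shifts ran from 0.772 h earlier (Per1) to 7.06 h later (Rora, whose fitted ratio was 1.15 in nuclei). Arntl, which encodes BMAL1, peaked at ZT21.0 and ZT23.1 and did not pass the test (adjusted p = 0.275). In level, 5 clock genes were higher in polysomal RNA and 9 lower (median -0.28). Per3, a repressor, was lowest at -3.19 ± 0.24 and Nr1d2, a repressor of Arntl, highest at 2.39 ± 0.17.

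Poly(A) site usage was tested as a site's share of the counts of all assigned sites of its gene, for 9676 sites of 3239 genes. Usage was higher in polysomal RNA for 3283 sites (33.9%) and lower for 2983 (30.8%) by edgeR's quasi-likelihood test with the gene's total as offset, so 64.8% were called. A called site that moved by at least 20 percentage points was found in 810 genes, and the ranges of the fractions did not overlap at 308 sites. Of 2904 sites called lower in replicates 2 to 6, 2421 (83.4%) were lower in replicate 1 and 1273 were called there, with 56 called the other way. Of 3229 called higher, 2726 (84.4%) were higher, 1277 were called and 76 were called the other way.

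Calls were split unevenly by a site's place in the gene. Of 399 sites in the first 20% of the gene's span, 191 (47.9%) were used less in polysomal RNA and 86 (21.6%) more, and mean usage was 32.1% in nuclei and 22.4% in polysomes. Of 1673 sites between 20% and 80% of the span, 728 (43.5%) were lower and 418 higher. The largest class, 4512 sites in the last 20% but over 100 bp before the end, had 1543 higher and 1374 lower, and mean usage of 27.1% in nuclei and 27.2% in polysomes. Of 3092 sites within 100 bp of the annotated end or past it, 690 (22.3%) were lower and 1236 higher, and mean usage rose from 44.1% to 48.0%. Within replicate 1, 189 sites of the first 20% were lower and 35 higher, and at the end of the gene 300 were lower and 606 higher. Whether a site lies in an exon or an intron was not analysed here, since the annotation used holds gene spans only. Nor was it examined whether a run of A inside the RNA lies beside a site, so a shift in usage need not be a change of 3′ end.

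**Figure D4:**
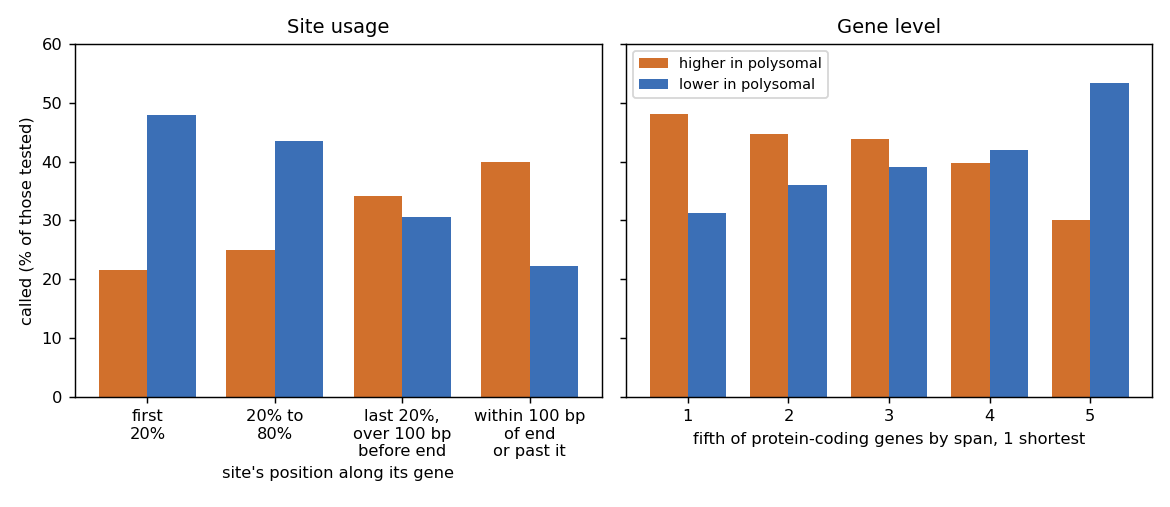
Bars give the percent of tested sites (left, by position along the gene) and of tested protein-coding genes (right, by quintile of gene span) called higher or lower in polysomal RNA. Lower calls prevail at upstream sites (47.9% in the first 20%) and in the longest genes (53.4%), and higher calls at the gene's end (1236 sites) and in the shortest genes (48.1%).

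In 8 genes with the largest shifts, chosen by the naming rule, a site upstream of the gene's end carried most nuclear reads and a small share of polysomal ones. Positions are in mm10, as in the authors' site list. Pid1, an adaptor protein of insulin and lipoprotein receptor signalling, had such a site at chr1:84283223-84283256 on the minus strand, 56.6 kb into the gene. It took 85.5% ± 7.64 (SD, n = 36) of the gene's site counts in nuclei, from 59.0% to 95.2%, and 0.386% ± 0.633 (n = 30) in polysomes, at most 2.4%. Polysomal replicate 1 had a mean of 2.42%. The site at the annotated end of Pid1 took 11.9% ± 6.58 in nuclei and 96.3% ± 2.33 in polysomes. Means of 687 nuclear and 807 polysomal counts per library stand behind these shares.

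Etv6, a transcriptional repressor, had a site 1.23 kb into a gene that runs 233 kb further (chr6:134036913-134036932, plus strand), with 74.9% ± 11.4 of nuclear and 1.52% ± 3.15 of polysomal counts. Pik3r1, the regulatory subunit of PI3-kinase, had a site 12.6 kb into the gene (chr13:101755616-101755690, minus strand) with 72.6% ± 9.18 and 1.85% ± 1.83. Lin7c, a scaffold of cell junctions, had one 0.545 kb into the gene (chr2:109891405-109891422, plus strand) with 71.2% ± 12.3 and 0.263% ± 0.763. Rere, a chromatin corepressor, had one at 36.7% of its span (chr4:150406245-150406308, plus strand) with 82.5% ± 7.51 and 13.9% ± 10.2. Wdfy3, an adaptor of selective autophagy, had one at 73.8% of its span (chr5:101895575-101895638, minus strand) with 89.4% ± 5.63 and 6.18% ± 9.18, on a mean of 42.7 polysomal counts per library. St3gal4, a sialyltransferase, had one at 64.8% of its span (chr9:35071315-35071344, minus strand) with 68.7% ± 11.5 and 0.259% ± 1.001. For Ssu72, a phosphatase of RNA polymerase II, the named site was the one near the gene's end (chr4:155733551-155733793, plus strand), at 21.8% ± 7.37 in nuclei and 98.3% ± 1.76 in polysomes, and its other site stood 9.83 kb into the gene. The ranges of the fractions overlapped at none of these 8 sites, which the naming rule chose for the size of their shift.

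**Figure D5:**
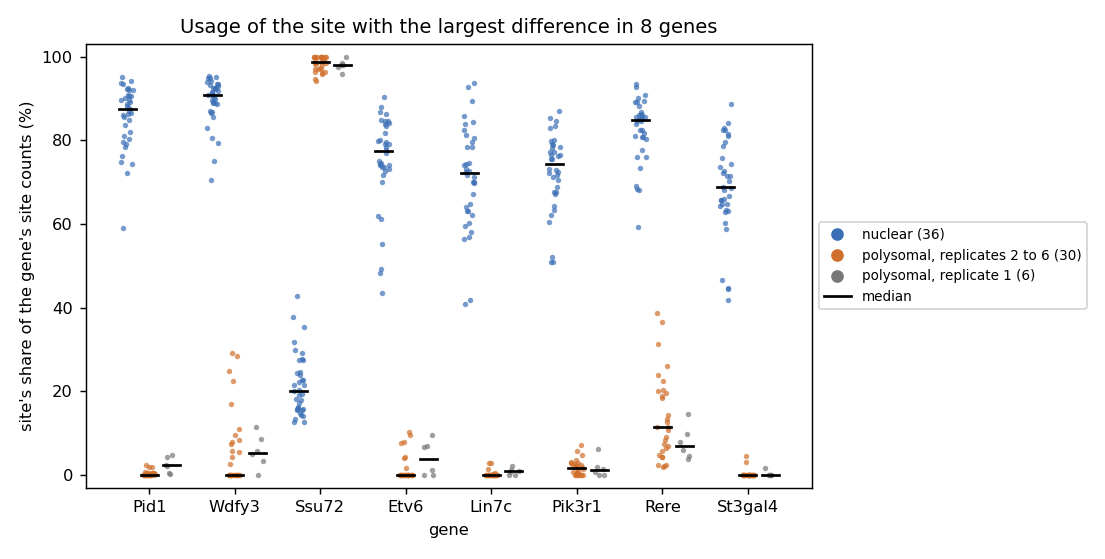
Each point is a library and gives the share of the gene's site counts, in percent, at the named site. In 7 genes this is an upstream site, high in nuclei and at a mean of 0.259% to 13.9% in polysomes, and in Ssu72 the site near the gene's end, at a mean of 98.3% in polysomes.

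Gene table and site sums were also set side by side for these genes. The gene table held a mean of 16.3 CPM of Ssu72 in nuclei, 22.9% of what its sites summed to, but 78.1 CPM in polysomes, 88.8% of the site sum. For Etv6 the shares were 36.8% and 117%, for St3gal4 41.2% and 111%, and for Pid1 123% and 85.7%. A gene's level therefore need not cover all of its sites in both fractions alike.

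Sites of splicing regulators were counted in the same way. Of 96 sites in 24 of these genes, 36 were higher and 37 lower in polysomal RNA, a share of 76.0% called against 64.8% of all sites. Of their 43 sites in the first 80% of the gene, 23 were lower (53.5%) and 9 higher (20.9%), against 44.4% and 24.3% of all 2072 tested sites there, so they lay near the background. Of 35 such sites in ribosomal protein genes 11 were lower and 17 higher, and of 28 in respiratory chain genes 4 were lower and 15 higher. These splits were not tested against each other.

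Over 3239 genes with at least 2 tested sites, the most 3′ site took a mean of 45.5% ± 2.19 (SD, n = 36) of a gene's counts in nuclear libraries, from 41.1% to 49.7%, and 49.2% ± 2.06 (n = 30) in polysomal libraries, from 46.0% to 53.9%. The means differed by 3.78 percentage points, although the ranges overlap. This difference exceeded those from exchanging the fraction labels within each time (permutation, 2-sided p = 1e-05, the smallest that 100000 resamples can give). It was 5.70 points within replicates 2 and 3 and 2.47 points within replicates 4 to 6. Within replicate 1 it was 2.79 points (permutation p = 0.0303). With a single library per fraction and time, that is about the smallest p such an exchange can give. Site counts outside the authors' filtered site list made up 20.7% ± 5.59 of a nuclear library's site counts (9.31% to 33.2%) and 10.1% ± 1.65 of a polysomal one's (8.18% to 14.4%), a difference of -10.6 points (permutation p = 1e-05), and what these further sites are was not analysed here. The difference was -6.04 points within replicates 2 and 3 and -12.5 points within replicates 4 to 6.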

How the data were processed

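Counts of 3′ mRNA-seq reads per gene and per poly(A) site came from the authors' deposited raw count tables. The submitters' processing notes name STAR 2.4.2a, HOMER, edgeR and the builds mm10 and GRCm38.p5. The authors' filtered site list carries a score that was not used as a measurement. Genes averaging 10 counts or more over the 66 libraries were tested with edgeR 4.0.16 (TMM factors, quasi-likelihood fit with 12 fraction-by-time groups, R 4.3.3), as the mean over times of polysomal minus nuclear, and p-values were adjusted over all genes (Benjamini-Hochberg). The difference of 24 h cosine terms was tested likewise. Of 29199 filtered sites, 24046 were given to a single RefSeq gene of their strand (up to 1000 bp past its end, site sum 0.3 to 1.5 times the gene's count), and sites with at least 5% of the counts in genes with a mean of 50 site counts or more were tested. DESeq2 1.42.0 and other settings served as alternatives.

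Named genes are Malat1, Neat1 and Alb, the 10 highest and 10 lowest called differences (mean of at least 50 counts, same direction at all 6 times, without predicted genes, pseudogenes and clones, of which 26 were passed over among the lowest and 0 among the highest), the extremes and the most abundant member of each list, the 5 smallest p for rhythm, and for sites the 8 genes with the largest shift. The members and lists were chosen with earlier results of these data known. On simulated counts for 11276 genes, all 100 genes changed 2-fold and 91 of 100 changed 1.5-fold were called, with 13 unchanged genes. There too the spread was set to a single value for all genes. Library depth ranged from 1662449 to 13068044 counts. No 2 libraries of a group held the same counts: over 180 pairs, chi-square divided by its degrees of freedom was at least 11.8. Results for some genes that the rule names are not reported here.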

Additional observations from a re-analysis of the deposited data

Results flagged for a closer look

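In 144 sets of 5 or 6 libraries of the same fraction and time, 17 held a library set apart from the rest by Dixon's test, which chance flags in about 1 of 20. In nuclei, replicate 1 was high for Snord89 at ZT2 (7752 CPM), ZT6 (7256), ZT10 (3139) and ZT14 (3197), and replicate 3 was high for the globin gene Hbb-bs at ZT2 (509 CPM), ZT10 (452) and ZT22 (640.2). Nuclear replicate 2 was high for Alb at ZT6 (27910 CPM) and Cox5a at ZT10 (73.8), and replicate 5 for Rps19 at ZT10 (216). Distal site usage was high in nuclear replicate 5 at ZT10 (49.4%) and ZT18 (49.7%). In polysomes, replicate 2 was high for Malat1 at ZT18 (96.5 CPM), and replicate 3 was high for Neat1 at ZT2 (43.5) and Snord89 at ZT14 (28.3) and low for Alb at ZT14 (5807) and Ppp1ca at ZT6 (123).

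edgeR's test of a difference in rhythm gave the smallest adjusted p for Gramd1c, AC153366.2, Gm42659 and Gm43274 (0.00364) and Gm26601 (0.00366). All but Gramd1c had a polysomal median of 0 CPM, so for those 4 there is no polysomal rhythm to compare and the p is not read as a difference.

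In the 6 polysomal libraries of replicate 1, outside the comparison, Scgb1a1, a secreted protein of airway cells, had a mean of 229 CPM (29.9 to 654), against at most 0.242 CPM in nuclear and 0.457 CPM in the other polysomal libraries.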

How the results depend on the processing

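The number of genes called was 5807 of 6867 with a mean of at least 50 counts, where fewer genes were tested. The other settings gave within 1.5 times of 9286, from 6366 (site sums) to 12894 (a mean of at least 1 count), and 8899 to 9328 with any replicate number left out. The rhythm count of 23 became 11 with polysomal replicate 1, 0 within replicates 2 and 3 (612 by unadjusted p), 1 within replicates 4 to 6, 1 with at least 50 counts and 0 with time as a factor (654 unadjusted), and 4 to 22 with a replicate left out, lowest without replicate 3. Called sites numbered 3906 within replicates 2 and 3, 3219 within replicate 1 and 2565 with at least 200 site counts (fewer sites tested), and 5644 to 6277 with a replicate left out. Lower calls were 6 for snoRNA hosts with at least 50 counts (6 tested), and, within replicate 1, 17 for plasma proteins and 16 for ribosomal proteins. Except where a smaller set tested is named, the cause was not tested.

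With a replicate left out, distal usage differed by 3.134 to 4.299 points, counts outside the filtered list by -12.04 to -9.85 points, lower calls numbered 8 to 9 (nuclear lncRNAs), 20 to 23 (splicing), 14 in each case (snoRNA hosts), 46 to 49 (plasma) and 50 to 56 (ribosomal), and higher calls 48 to 53 (respiratory chain), 52 to 58 (mitochondrial ribosome), 23 to 24 (proteasome) and 13 to 14 (selenoproteins).

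Directions that turned within replicate 1 were Alb (0.035), Rplp1 (0.18), Eef2 (0.42), mt-Nd6 (-0.59), Ndufv3 (0.052), Psmb10 (0.63), Sc5d (-0.014), Tmem150a (-0.78), Celf1 (-0.092), Vamp8 (0.62), Mat2a (0.21) and Gstp-ps (0.87). Within replicates 4 to 6 Alb (0.032), Tef (0.054), mt-Nd3 (0.19) and Scd1 (1.34) turned, and with a replicate left out mt-Nd3 ranged from -0.177 (without 5) to 0.077 (without 2), Scd1 from -0.415 (without 6) to 0.378 (without 3) and Psmd11 from -0.028 (without 6) to 0.121 (without 2), and Eif4a2 turned with site sums (1.11). Psmd11, not called, turned within replicates 2 and 3 (-0.016), with site sums (-0.24), RLE factors (-0.068), upper quartile (-0.021), at least 50 counts (-0.083) and DESeq2 (-0.068).

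Same-numbered libraries did not deviate together: over 30 pairs their deviations correlated at a mean of -0.13, none above 0.1, and no library correlated best with its own number. With a replicate block 9243 genes, 22 rhythms and 6216 sites were called, with 30 pairs 9037 genes, and distal usage and unlisted counts differed by 3.76 and -9.89 points. Scd1 turned to 0.26 and 0.38 under these blocks and Psmd11 to -0.0093. Without the nuclear library with Xist, 9242 genes, 24 rhythms and 6230 sites were called. The fits within replicate 1, without that library and on site sums, and the recount without the 22 genes set apart (9264 genes called), were added after seeing the data. RLE factors were not run for usage, whose offset replaces them.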
